A study of Homo sapiens with 4 samples.

Results

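The genes described here are 50 genes of DNA replication licensing and synthesis, chosen by name from the roles of their proteins. They were chosen with earlier results of these data known, and were matched to the deposited table by Entrez identifier through RefSeq. All 50 were listed among the 16658 genes of the table, and all 50 passed the filter on low values that left 10726 genes for testing (an FPKM of at least 1 in at least 2 of 4 libraries). FPKM counts sequenced fragments relative to the length of the transcript and the size of the library, so it is a level per length and can be compared between genes. The study knocked out ZCCHC4, which encodes a methyltransferase of ribosomal RNA, by CRISPR/Cas9 in cells labelled HepG2, a line established from a human liver tumor, and sequenced RNA from WT cells and from ZCCHC4 KO1 cells. Both groups were untreated and were grown in DMEM with 10% fetal bovine serum to 80% confluence. There were 2 libraries of wildtype cells and 2 libraries of ZCCHC4 knockout cells, and ZCCHC4 KO1 is 1 of several knockout lines of the study, which carried frameshift mutations in the gene. It was not stated that the repetitions came from separate cultures, so the p-values measure the spread between these libraries, which may be technical.

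Before DNA can be copied, the origin recognition complex, CDC6 and CDT1 load the ring-shaped MCM2 to MCM7 helicase onto origins, a step called licensing that geminin, the product of GMNN, blocks by binding CDT1. Cyclin E with its kinase and the CDC7-DBF4 kinase then let CDC45 and the GINS complex join the helicase, and DNA polymerases, the PCNA clamp, its loader RFC, RPA, FEN1 and DNA ligase 1 copy and join the strands. Many of these genes are transcribed late in G1 phase and in S phase by E2F factors, and they are widely used as marks of proliferating cells, in liver tumors as in other tissues.

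ZCCHC4 itself was at an FPKM of 7.22 and 5.44 in WT against 1.08 and 2.29 in ZCCHC4 KO1, a log2 fold change of -1.48 (standard error, SE, 0.287, limma adjusted p = 0.0448; 0.0514 without ZCCHC4 KO1 replicate 1). No read totals can be taken from FPKM values, and sequencing depth is unknown. The FPKM of the libraries summed to between 512417.0 and 565198.6. Of 12 hepatocyte markers, 7 were analysed here and none reached an FPKM of 1 in all libraries; ALB, APOA1, APOB, TTR and TF were not analysed here. These 7 summed to between 0.58 and 0.88, and AFP was at 0 in 3 libraries and at 0.05 in the other. KRT8, KRT18 and KRT7 were at 1294.42 or above in every library, while KRT19 and EPCAM were at 0.11 or below. These values go against the label HepG2, a line known for AFP and other hepatocyte genes, and the libraries are called by their labels here. The 5 epithelial markers together summed to 5243.51 and 6095.09 in WT against 9259.96 and 7068.92 in ZCCHC4 KO1. The 6 analysed fibroblast markers summed to 27.43 and 26.16 in WT against 11.20 and 14.06 in ZCCHC4 KO1. The 3 analysed leukocyte markers and the 3 endothelial markers summed to at most 1.44 and 0.74. The part of these markers in the results on replication genes was not tested.

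Mean levels of 45 of the 50 replication genes were lower in ZCCHC4 KO1 cells and those of 5 were higher, where 53.2 percent of all 10726 tested genes were lower and 46.8 percent higher. Their median log2 fold change, taken throughout on the log2(FPKM + 1) scale as ZCCHC4 KO1 minus WT, was -0.39, against -0.03 for all tested genes. At an adjusted p below 0.05 from limma, 5 of the 50 genes fell, namely MCM6, RRM2, GINS1, MCM4 and PRIM2, and 0 rose. Over all tested genes, 4.48 percent fell and 1.5 percent rose by this rule, while 10 percent of the replication genes were called lower. At an unadjusted p below 0.05, 21 of the 50 were lower and 0 higher, where 13.9 and 8.96 percent of all genes passed. The thresholds of the study were stricter, a false discovery rate under 0.001 with at least a 2-fold difference, and by them limma called 0 of the 50, against 0.0559 percent of all genes lower and 0.0186 percent higher. In RNA from bulk cells, fewer cells in S phase and less of these RNAs per cell cannot be told apart.

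In 29 of the 50 genes the higher ZCCHC4 KO1 library lay under the lower WT library, as in 28.5 percent of all tested genes. In 1 gene, POLE, the order was the opposite, as in 23.1 percent of all tested genes. In the other 20 genes the groups overlapped. The summed FPKM of the 50 genes was 3083.4 and 3112.8 in WT against 2360.9 and 2486.0 in ZCCHC4 KO1, which is 78.2 percent of the WT mean. Their share of the FPKM of each library was 0.602 and 0.579 percent in WT against 0.418 and 0.477 percent in ZCCHC4 KO1. Both sums were lower in each ZCCHC4 KO1 library than in each WT library (two-sided exact permutation test, p = 0.333, the smallest that 2 against 2 libraries allow). The 5 genes that were higher in mean were ORC3, RFC1, POLE, TK1 and DBF4, named here because they were the exceptions.

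**Figure D1:**
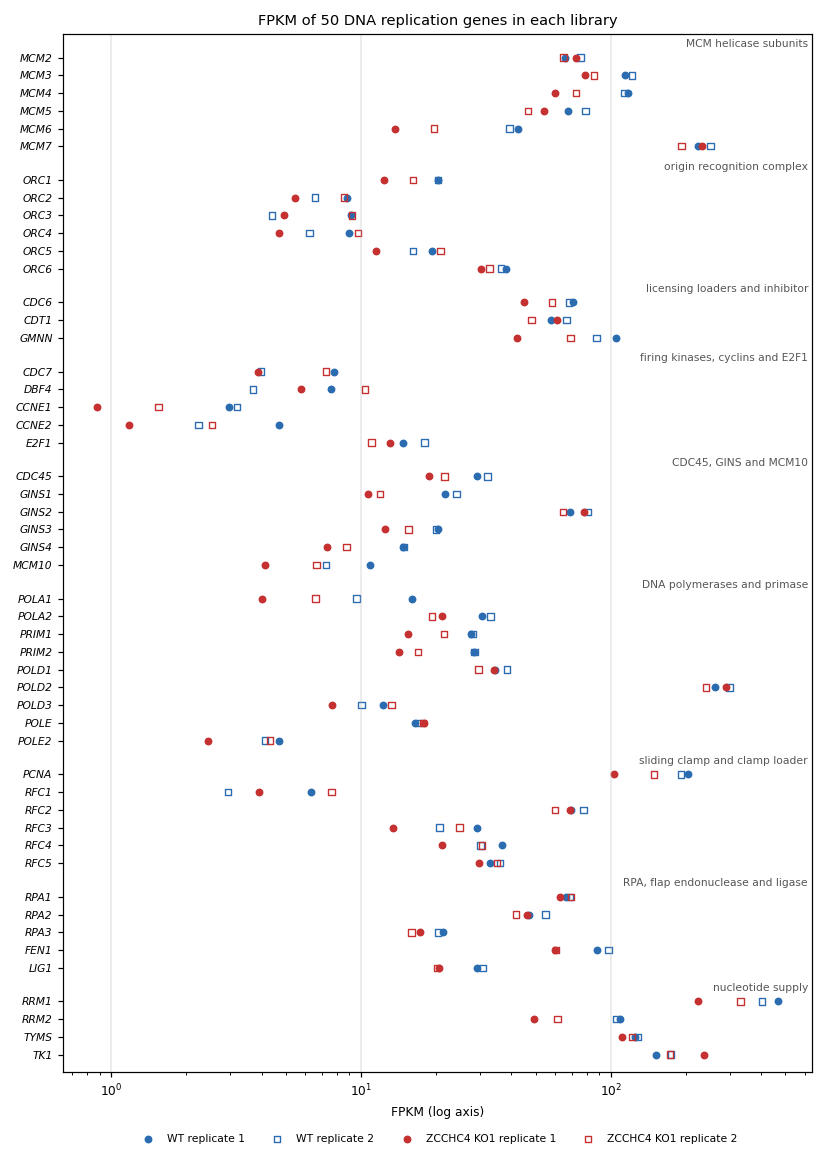
FPKM of the 50 replication genes (horizontal log axis) in each of the 4 libraries, grouped by the role of the protein; circles are replicate 1, squares replicate 2, blue WT and red ZCCHC4 KO1. In 29 genes both red symbols lie to the left of both blue symbols, and the levels run from 0.88 for CCNE1 in a ZCCHC4 KO1 library to 466.44 for RRM1 in a WT library.

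**Figure D2:**
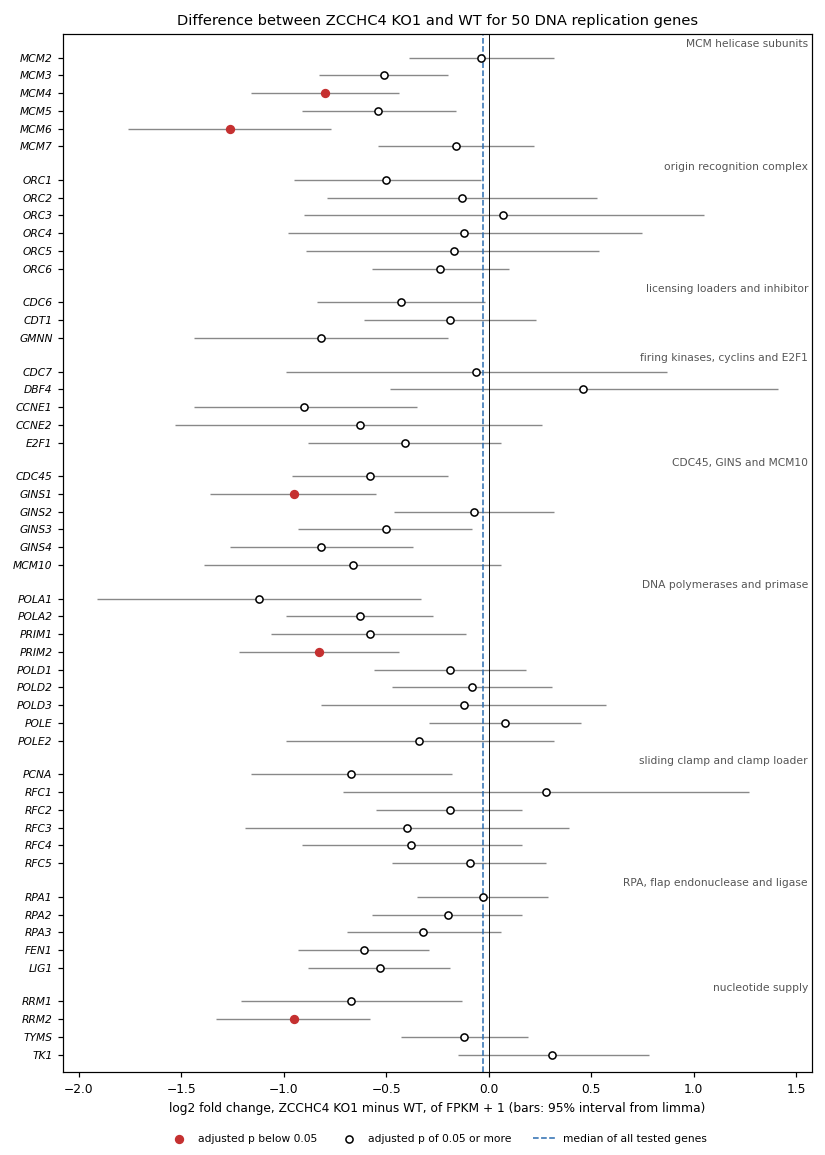
Log2 fold change of each gene, ZCCHC4 KO1 minus WT, on the log2(FPKM + 1) scale (horizontal axis), with the 95% interval from limma as a bar; filled points passed an adjusted p of 0.05 and the dashed line is the median of all tested genes. The points lie between -1.26 for MCM6 and 0.46 for DBF4, and 45 of 50 lie left of 0.

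The upstream sequences of the called genes that had one, MCM6, GINS1, RRM2 and PRIM2, are shown because E2F factors and CCAAT-binding factors are the textbook regulators of this set. Those of PCNA and E2F1, which were not called, are shown for comparison and carry E2F matches. Each sequence is the 250 bases before the outermost start given for the gene in the RefSeq windows used here, on GRCh38.p14, read 5′ to 3′ on the gene's own strand. Capitals mark matches to the E2F letters TTTCCCGC, TTTGGCGC, TTTCGCGC or TTTGCCGC and to the 5 letters CCAAT, each on either strand.
MCM6, chr2:135876444-135876693, minus strand: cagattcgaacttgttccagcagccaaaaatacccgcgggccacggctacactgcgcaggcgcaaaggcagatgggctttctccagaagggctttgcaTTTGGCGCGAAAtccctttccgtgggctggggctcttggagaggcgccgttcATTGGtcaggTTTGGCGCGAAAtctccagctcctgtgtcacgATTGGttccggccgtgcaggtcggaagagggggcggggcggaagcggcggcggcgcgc
GINS1, chr20:25407423-25407672, plus strand: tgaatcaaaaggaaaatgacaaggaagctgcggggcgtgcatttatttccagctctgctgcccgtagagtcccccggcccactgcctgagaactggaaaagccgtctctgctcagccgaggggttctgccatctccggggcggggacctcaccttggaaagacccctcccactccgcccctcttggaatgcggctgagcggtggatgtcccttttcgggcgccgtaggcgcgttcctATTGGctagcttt
RRM2, chr2:10122318-10122567, plus strand: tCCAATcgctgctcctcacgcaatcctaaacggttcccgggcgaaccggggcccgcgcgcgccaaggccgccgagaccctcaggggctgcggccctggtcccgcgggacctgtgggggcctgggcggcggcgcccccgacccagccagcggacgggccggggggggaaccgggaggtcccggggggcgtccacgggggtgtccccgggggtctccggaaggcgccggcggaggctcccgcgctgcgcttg
PRIM2, chr6:57314555-57314804, plus strand: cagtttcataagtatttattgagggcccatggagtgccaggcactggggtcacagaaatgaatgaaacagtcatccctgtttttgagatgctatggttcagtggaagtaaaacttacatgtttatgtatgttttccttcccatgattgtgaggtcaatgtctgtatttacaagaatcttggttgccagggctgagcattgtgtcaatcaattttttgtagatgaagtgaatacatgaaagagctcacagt
PCNA, chr20:5126623-5126872, minus strand: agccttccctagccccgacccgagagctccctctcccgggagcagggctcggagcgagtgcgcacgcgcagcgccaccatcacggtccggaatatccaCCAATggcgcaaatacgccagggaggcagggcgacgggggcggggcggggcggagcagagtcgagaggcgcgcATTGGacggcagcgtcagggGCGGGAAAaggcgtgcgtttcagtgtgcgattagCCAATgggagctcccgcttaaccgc
E2F1, chr20:33686386-33686635, minus strand: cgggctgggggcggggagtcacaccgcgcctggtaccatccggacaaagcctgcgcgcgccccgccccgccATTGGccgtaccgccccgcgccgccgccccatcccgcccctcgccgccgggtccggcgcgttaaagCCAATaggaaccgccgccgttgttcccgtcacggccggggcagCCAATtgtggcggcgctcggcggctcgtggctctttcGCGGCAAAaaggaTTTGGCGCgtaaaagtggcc

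MCM6 has 4 E2F matches in this window, which form 2 overlapping pairs, and 2 CCAAT matches. E2F1 has 2 E2F matches and PCNA has 1, each with 3 CCAAT matches, while GINS1 and RRM2 have 0 E2F matches and 1 CCAAT match each. PRIM2 has 0 of both, but its window lies inside the gene as annotated (57221540 to 57646850), so it is not the sequence before the first annotated start. Windows were found for 43 of the 50 genes, counting every listed start. CCNE2, GINS4, MCM4, MCM5, POLD3, RPA2 and RPA3 had no window. An E2F match stood before 16 of the 43 genes (37.2 percent), against 3.4 percent of the 27305 genes with a window and 6.03 percent of the 8827 tested genes with one. A CCAAT match stood before 25 of the 43 (58.1 percent), against 37 percent of all genes and 42 percent of the tested genes. The median was -0.41 in the 16 genes with an E2F match, of which 14 were lower, and -0.34 in the 27 without one, of which 24 were lower. Of the called genes with a window, MCM6 had an E2F match and GINS1, RRM2 and PRIM2 had none. A match to letters is not evidence of binding.

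MCM2 to MCM7 form the ring of the replicative helicase, and all 6 were lower in mean, with a median log2 fold change of -0.53. MCM6, on chromosome 2 of GRCh38 from 135839626 to 135876443, had the lowest log2 fold change of the 50 genes on the log2(FPKM + 1) scale; with a pseudocount of 0.1 it was -1.31, and CCNE1 was at -1.32. Its FPKM was 42.49 and 39.32 in WT against 13.74 and 19.60 in ZCCHC4 KO1, that is 40.91 ± 2.24 and 16.67 ± 4.14 (SD, n = 2 each). Both ZCCHC4 KO1 libraries were at less than 50 percent of both WT libraries. The log2 fold change of MCM6 was -1.26 (SE 0.2, limma adjusted p = 0.0263). MCM4, on chromosome 8 from 47960941 to 47978160, was at 117.14 and 113.67 in WT against 59.79 and 72.53 in ZCCHC4 KO1. Its log2 fold change was -0.80 (SE 0.145, limma adjusted p = 0.0378), without overlap of the groups.

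The other subunits moved by less. MCM3 was at 113.64 and 121.94 against 79.01 and 85.54, and MCM5 at 67.54 and 79.38 against 53.93 and 46.58, in WT and ZCCHC4 KO1. Neither group pair overlapped, and the log2 fold changes of -0.51 and -0.54 had adjusted p-values of 0.0809 and 0.106 from limma. The groups overlapped for MCM2 (65.56 and 75.53 against 72.80 and 64.69) and for MCM7 (223.10 and 250.46 against 232.88 and 191.95). The 95% intervals of their log2 fold changes ran from -0.39 to 0.32 and from -0.54 to 0.22, so that a rise and a fall were both within the error. A lncRNA on the other strand shares 23.6 percent of the exon bases of MCM2.
MCM6 was the least abundant subunit per length in WT, and MCM7 the most abundant. The ratio of MCM7 to MCM6 was 5.25 and 6.37 in WT against 16.95 and 9.79 in ZCCHC4 KO1. MCM6 made up 6.75 and 5.78 percent of the summed FPKM of the 6 subunits in WT, and 2.68 and 4.08 percent in ZCCHC4 KO1. The sum itself was 629.5 and 680.3 in WT against 512.1 and 480.9 in ZCCHC4 KO1, or 75.8 percent of the WT mean. None of these values overlapped between the groups (two-sided exact permutation test, p = 0.333 for each, the smallest possible).

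Among the genes of helicase loading and its inhibition, GMNN and CDC6 did not overlap between the groups and the origin recognition complex mostly did. GMNN, the licensing inhibitor, was at 105.36 and 87.60 in WT against 42.03 and 69.03 in ZCCHC4 KO1. Its log2 fold change was -0.82 (SE 0.252, limma adjusted p = 0.126), and the ZCCHC4 KO1 libraries differed by more than the WT libraries. CDC6, the ATPase that helps to load the helicase, was at 70.52 and 67.99 against 44.81 and 58.30, a log2 fold change of -0.43 (limma adjusted p = 0.198). CDT1, the partner that geminin binds, was at 57.80 and 66.55 against 61.12 and 48.11, and the groups overlapped. The ratio of CDT1 to GMNN was 0.55 and 0.76 in WT against 1.45 and 0.70 in ZCCHC4 KO1. This ratio overlapped as well, with ZCCHC4 KO1 replicate 1 above both WT libraries and replicate 2 between them.

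ORC1 to ORC6 encode the complex that marks origins. ORC1, the subunit whose level follows the cell cycle most closely, was at 20.42 and 20.39 in WT against 12.39 and 16.20 in ZCCHC4 KO1 (log2 fold change -0.50, standard error 0.184, limma adjusted p = 0.185). ORC6, the most abundant of the complex per length in WT, was at 37.92 and 36.35 against 30.16 and 32.67, with a log2 fold change of -0.24. The remaining subunits overlapped. ORC2, ORC3, ORC4 and ORC5 had log2 fold changes between -0.17 and 0.07, with standard errors from 0.268 to 0.395 that exceed these values. In each of these subunits the spread within a group was larger than the difference between the group means. For example, ORC3 was at 9.10 and 4.41 in WT against 4.92 and 9.20 in ZCCHC4 KO1.

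The genes of origin firing (CDC7, DBF4, CCNE1 and CCNE2) and E2F1 were at low levels, none above the WT mean of E2F1, 16.36. CCNE1, which encodes cyclin E1, was at 2.97 and 3.19 in WT against 0.88 and 1.55 in ZCCHC4 KO1, or 39.4 percent of the WT mean, the lowest share among the 50 genes. Its log2 fold change of -0.90 (standard error 0.22) had an adjusted p of 0.0781 from limma, and at these levels the scale understates the change. CCNE2, which encodes cyclin E2, was at 4.69 and 2.24 against 1.18 and 2.53, and the groups overlapped. Of the exon bases that GENCODE gives CCNE2, 37 percent are shared with INTS8 on the other strand, and the sources used here do not say whether reads were counted by strand, so its level is uncertain. E2F1, the transcription factor, was at 14.74 and 17.99 against 13.09 and 11.01, without overlap (log2 fold change -0.41, limma adjusted p = 0.27). CDC7, the kinase, was at 7.80 and 3.99 against 3.87 and 7.25. DBF4, its activating subunit, was at 7.59 and 3.69 against 5.75 and 10.37. Each of these spans overlapped the other group, and the log2 fold changes were -0.06 and 0.46 with standard errors of 0.376 and 0.384.

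CDC45 and GINS join the MCM ring to make the active helicase, and MCM10 helps to start it. This group had the lowest median log2 fold change of the roles, at -0.62, with all 6 genes lower and 5 without overlap. Over all tested genes, 53.2 percent were lower and 28.5 percent were lower without overlap. GINS1, on chromosome 20 from 25407673 to 25448563, was at 21.64 and 24.16 in WT against 10.71 and 11.95 in ZCCHC4 KO1. Its level was 49.5 percent of the WT mean, with a log2 fold change of -0.95 (SE 0.164, limma adjusted p = 0.0319). GINS4 was at 14.72 and 14.91 against 7.29 and 8.74 (log2 fold change -0.82, limma adjusted p = 0.0597). A lncRNA on the other strand shares 21 percent of its exon bases. GINS3 was at 20.38 and 20.00 against 12.54 and 15.48, while GINS2, the most abundant, was at 68.91 and 80.59 against 78.01 and 64.43 and overlapped. CDC45 was at 29.06 and 32.13 against 18.70 and 21.59 (log2 fold change -0.58, limma adjusted p = 0.0934), and MCM10 at 10.90 and 7.25 against 4.12 and 6.63.

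Primase and DNA polymerase alpha make the RNA-DNA primers, and their subunits POLA1, POLA2, PRIM1 and PRIM2 were all lower without overlap. Of all 9 genes of DNA polymerases and primase, 5 were lower and 1 was higher without overlap. That was 55.6 and 11.1 percent, against 28.5 and 23.1 percent of all tested genes. PRIM2, the large primase subunit on chromosome 6 from 57221540 to 57646850, was at 28.32 and 28.44 in WT against 14.24 and 16.94 in ZCCHC4 KO1. Its log2 fold change was -0.83 (SE 0.159, limma adjusted p = 0.0431). RefSeq lists a pseudogene copy, PRIM2BP, which was not analysed here, and reads divided differently between the copies would alter this value. POLA1, the catalytic subunit of polymerase alpha on chromosome X from 24693918 to 24996986, was at 16.01 and 9.61 against 4.03 and 6.59. It had the second-lowest log2 fold change of the 50 genes, -1.12, with a wide spread between replicates (SE 0.318, limma adjusted p = 0.106). POLA2 was at 30.49 and 33.06 against 21.11 and 19.26, and PRIM1, the small primase subunit, at 27.67 and 28.02 against 15.45 and 21.50. Their log2 fold changes were -0.63 and -0.58. POLA2 shares 16.8 percent of its exon bases with another annotated gene on the same strand, and PRIM1 shares 10.9 percent with another.

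The polymerases that extend the strands showed smaller differences. POLD2, an accessory subunit of polymerase delta and the second most abundant of the 50 genes in WT, was at 260.53 and 299.05 against 290.32 and 241.16. POLD1, its catalytic subunit, was at 34.35 and 38.48 against 33.95 and 29.59, and POLD3 overlapped. POLE, the catalytic subunit of polymerase epsilon, was the only gene with both ZCCHC4 KO1 libraries above WT, at 16.43 and 17.07 in WT against 17.82 and 17.69 in ZCCHC4 KO1. That difference was 0.08 on the log2 scale (95% interval from -0.29 to 0.45), and the order did not hold after rescaling by median ratios, where 0 genes were above without overlap. POLE2 was at 4.70 and 4.14 against 2.45 and 4.32.

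PCNA, the sliding clamp, was at 204.26 and 190.80 in WT against 102.95 and 148.92 in ZCCHC4 KO1, or 63.8 percent of the WT mean. Its log2 fold change was -0.67 (SE 0.198, limma adjusted p = 0.117). RefSeq lists 4 PCNA pseudogenes, which were not analysed here. RFC1 to RFC5 load the clamp, and all but RFC2 overlapped between the groups. RFC3 was at 29.15 and 20.59 against 13.46 and 24.86 (log2 fold change -0.40, standard error 0.318), and its sign turned without ZCCHC4 KO1 replicate 1 (0.02). RFC2 was at 69.40 and 77.95 against 68.99 and 59.76. RFC1, the large subunit, was at 6.29 and 2.94 against 3.90 and 7.62, so that each group held a higher and a lower library.

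RPA coats single-stranded DNA, and FEN1 and DNA ligase 1 process and seal Okazaki fragments. FEN1 was at 87.73 and 98.03 in WT against 59.97 and 60.47 in ZCCHC4 KO1 (log2 fold change -0.61, standard error 0.13, limma adjusted p = 0.0545). LIG1 was at 29.07 and 30.67 against 20.55 and 20.15 (log2 fold change -0.53, standard error 0.14, limma adjusted p = 0.0905). In both genes the groups were further apart than the libraries within a group. RPA1, RPA2 and RPA3 had log2 fold changes of -0.03, -0.20 and -0.32, and RPA1, at 66.18 and 68.65 against 62.91 and 69.34, overlapped.

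Of the 4 genes that supply deoxynucleotides, RRM2 was called lower and the others did not pass the test. RRM2, the subunit of ribonucleotide reductase whose level follows S phase, lies on chromosome 2 from 10122568 to 10211010. It was at 109.38 and 105.07 in WT against 49.21 and 61.11 in ZCCHC4 KO1, a log2 fold change of -0.95 (SE 0.152, limma adjusted p = 0.0264). RefSeq lists 3 RRM2 pseudogenes, which were not analysed here. RRM1, the large subunit and the most abundant of the 50 genes in WT, was at 466.44 and 403.93 against 224.03 and 331.08 (log2 fold change -0.67, standard error 0.217, limma adjusted p = 0.141). TYMS, thymidylate synthase, was at 124.68 and 127.90 against 111.40 and 121.56, or 92.2 percent of the WT mean, and shares 39.9 percent of its exon bases with ENOSF1 on the other strand. TK1, thymidine kinase, was at 151.19 and 174.30 against 236.80 and 172.51, and the groups overlapped.

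The calls depended on single libraries. The number of the 50 genes called lower at an adjusted p below 0.05 from limma was 1 without WT replicate 1, 4 without WT replicate 2, 4 without ZCCHC4 KO1 replicate 1 and 19 without ZCCHC4 KO1 replicate 2. In the same fits 2.55, 3.35, 4.21 and 9.67 percent of all tested genes were called lower, so that without WT replicate 1 the share of the 50 genes was below that of all genes. MCM6 was called in each of these fits, RRM2 in all but that without WT replicate 1 (limma adjusted p = 0.0623). GINS1 and MCM4 lost the call without either WT library (adjusted p from 0.123 to 0.276 from limma), and PRIM2 without any library but ZCCHC4 KO1 replicate 2 (0.0638 to 0.278). In each comparison of 1 ZCCHC4 KO1 library with 1 WT library, between 36 and 45 of the 50 genes were lower. In the same comparisons, between 43.2 and 62 percent of all tested genes were lower. The median of the 50 genes lay between -0.61 and -0.27, while that of all tested genes lay between -0.21 and 0.07.

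Replicates differed from each other by transcript base composition. The longest transcripts of the 50 genes had between 36.9 and 64.3 percent GC. Over these genes, replicate 2 minus replicate 1 had a Spearman correlation with GC of 0.83 for WT and of -0.87 for ZCCHC4 KO1. Across all 10559 tested genes with a GC value it was 0.71 and -0.76. These correlations describe genes of the same libraries, which are not independent replicates. ORC3, CDC7, RFC1 and DBF4, all AT-rich, had opposite orders in the groups, lower in replicate 2 of WT and higher in replicate 2 of ZCCHC4 KO1. The correlation of GC content with the log2 fold change itself was 0.10 over the 50 genes and 0.18 over all genes. Of 22 replication genes under 45 percent GC, 19 were lower (median -0.42), where 61.9 percent of all genes in that range were lower. Of 12 genes from 45 to 50 percent, 12 were lower (median -0.35), against 60.6 percent of all. Of 16 genes at 50 percent or more, 14 were lower (median -0.30), against 42.8 percent of all. With the GC trend removed from each library, 20 of the 50 genes fell at an adjusted p below 0.05 from limma and 0 rose, where 13 percent of all tested genes fell. The 5 genes called as deposited were among the 20, and CCNE1, CCNE2, CDC45, E2F1, FEN1, GINS4, GMNN, LIG1, MCM3, MCM5, PCNA, POLA1, POLA2, PRIM1 and RRM1 were the others.

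**Figure D3:**
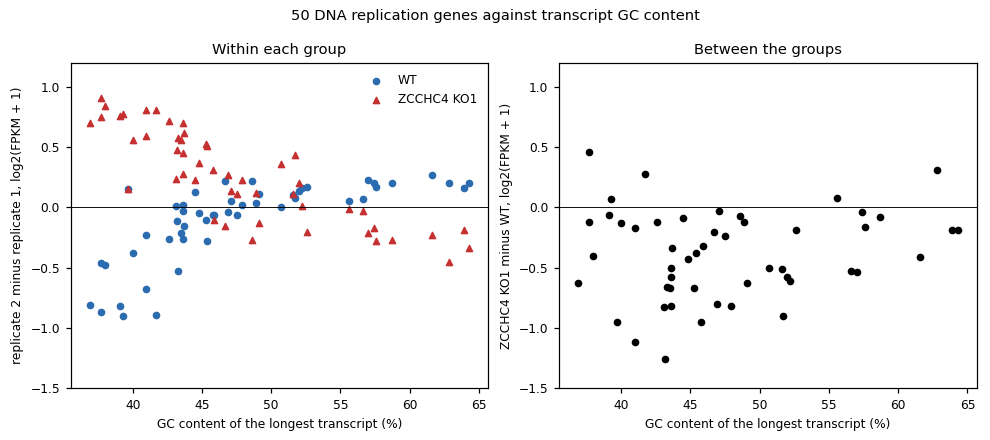
Left, the difference between replicate 2 and replicate 1 on the log2(FPKM + 1) scale (vertical) against transcript GC content in percent (horizontal) for the 50 genes, WT in blue and ZCCHC4 KO1 in red; right, the log2 fold change between the groups against the same axis. The within-group differences run in opposite directions along GC content (Spearman 0.83 and -0.87), and the difference between groups correlates weakly with it (0.10).

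For each replication gene the median log2 fold change of the 24 nearest tested genes was taken. MCM6 and ORC4 are each among the other's neighbours. POLA1 lies in a stretch of chromosome X from 20149911 to 40606848 in which 24 of 24 neighbours were lower (median -0.72). On chromosome 8, 24 of 24 neighbours of GINS4 (median -0.56) and 23 of 24 neighbours of MCM4 (median -0.52) were lower. MCM6 had 21 of 24 lower neighbours (median -0.43) and MCM3 had 18 (median -0.42), while PRIM2 had 19 (median -0.33). ORC4 had 20 (median -0.42) but was itself at -0.12, a difference of 0.31 from its neighbours. In contrast, the neighbours of RRM2 and GINS1 had medians of -0.07 and 0.05, and those of CCNE1, FEN1 and LIG1 had medians of 0.08, 0.08 and 0.19. A neighbour median of -0.3 or less, a limit chosen after seeing the data, was found for 8 of the 50 genes (16 percent) and for 8.53 percent of all tested genes with a position. Those 8 held 3 of the 5 called genes and had a median of -0.81, and 7 of them were lower without overlap. Of the other 42 genes, 37 were lower, with a median of -0.28 and 22 without overlap. Over all tested genes, 53.2 percent were lower, and 28.5 percent were lower without overlap. Relative to the median of their own neighbours, 43 of the 50 genes were lower, against 49.9 percent of all tested genes with a position, and the median difference was -0.31. For MCM6 the difference from its neighbours was -0.84, and for RRM2 -0.89, but for MCM4 -0.28 and for PRIM2 -0.50. The part of the neighbourhood in these values was not tested.

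**Figure D4:**
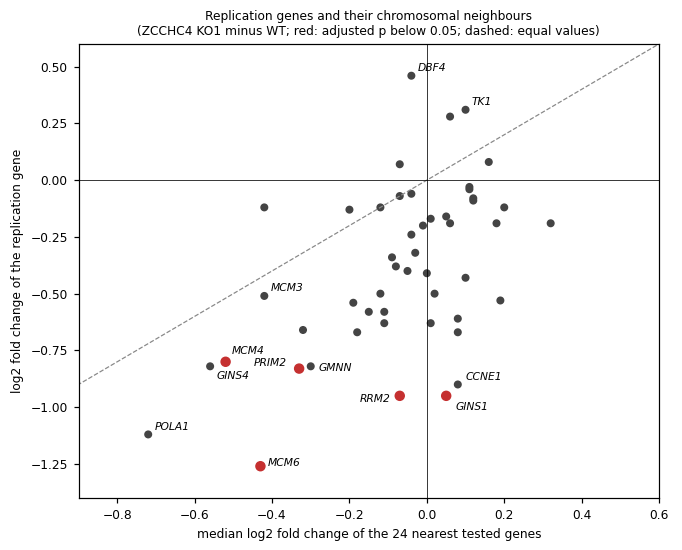
Log2 fold change of each of the 50 genes (vertical) against the median log2 fold change of its 24 nearest tested genes (horizontal), both ZCCHC4 KO1 minus WT; red points passed an adjusted p of 0.05 and the dashed line marks equal values. Of the 50 points, 43 lie below the line, with POLA1, GINS4, MCM4, MCM6 and MCM3 at the left, where the neighbours were lower too; ORC4 (-0.42 and -0.12) lies above the line.

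Other genes of the pathway were counted from lists written by hand. Of 40 tested genes with other roles in replication, 18 were lower and the median was 0.02. Limma called 0 of them at an adjusted p below 0.05. At an unadjusted p below 0.05, 6 were lower and 4 higher (15 and 10 percent), against 13.9 and 8.96 percent of all tested genes. Without overlap, 25 percent were lower and 15 percent higher, against 28.5 and 23.1 percent of all tested genes. DONSON, a replisome factor, was at 22.63 and 16.36 in WT against 7.09 and 10.74 in ZCCHC4 KO1 (log2 fold change -1.06, limma adjusted p = 0.0786). MCMDC2, a relative of the MCM genes, was at 4.86 and 4.40 against 2.39 and 2.24, and TRAIP, a ubiquitin ligase of the replisome, at 11.41 and 13.33 against 26.17 and 19.11. These groups did not overlap, and TRAIP was higher with a log2 fold change of 0.81 (limma adjusted p = 0.0849).

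Of 14 other genes of nucleotide synthesis, 8 were lower (median -0.04). At an unadjusted p below 0.05, 7.14 percent of them were lower and 7.14 percent higher, against 13.9 and 8.96 percent of all tested genes. Limma called 0 of them, and at an unadjusted p below 0.05 DUT, the dUTPase, was lower (101.56 and 96.71 against 57.22 and 69.90) and NME1, a nucleoside diphosphate kinase, was higher (584.61 and 663.63 against 995.17 and 787.76). Of 12 genes of the E2F and RB family, 8 were lower (median -0.32), with 0 called and 2 in each direction at an unadjusted p below 0.05. That was 16.7 percent in each direction, against 13.9 percent lower and 8.96 percent higher over all tested genes. Here E2F2, an activating factor, was at 4.90 and 5.65 against 2.87 and 2.59, and E2F8, a repressing factor, was higher, at 0.66 and 0.52 against 1.39 and 2.37. E2F4 was higher too, at 46.37 and 48.96 against 65.94 and 64.86. Their adjusted p-values from limma were 0.0875, 0.0935 and 0.102.

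Of 10 genes of histone supply and chromatin assembly, 9 were lower (median -0.30), 0 were called and 3 were lower at an unadjusted p below 0.05. That was 30 percent, where 13.9 percent of all tested genes were lower by this rule. CHAF1B was at 20.32 and 23.60 against 12.40 and 13.85, ASF1B at 49.31 and 61.62 against 38.27 and 35.31, and DNMT1, the maintenance DNA methyltransferase, at 60.18 and 60.32 against 43.80 and 50.09. Of 26 mitosis genes, 15 were lower (median -0.09), limma called 0, and 4 were lower and 0 higher at an unadjusted p below 0.05. The 4 were 15.4 percent of the list, against 13.9 percent of all tested genes. AURKA, a mitotic kinase, was at 131.85 and 135.63 against 76.97 and 95.24, CCNB2, cyclin B2, at 98.07 and 100.60 against 66.64 and 77.25, and KIF20A, a kinesin, at 70.45 and 71.14 against 50.16 and 58.85. All 3 were without overlap. Lower without overlap were 30.8 percent of the mitosis genes and 28.5 percent of all tested genes. Differences between these lists and the 50 replication genes were not tested.

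**Figure D5:**
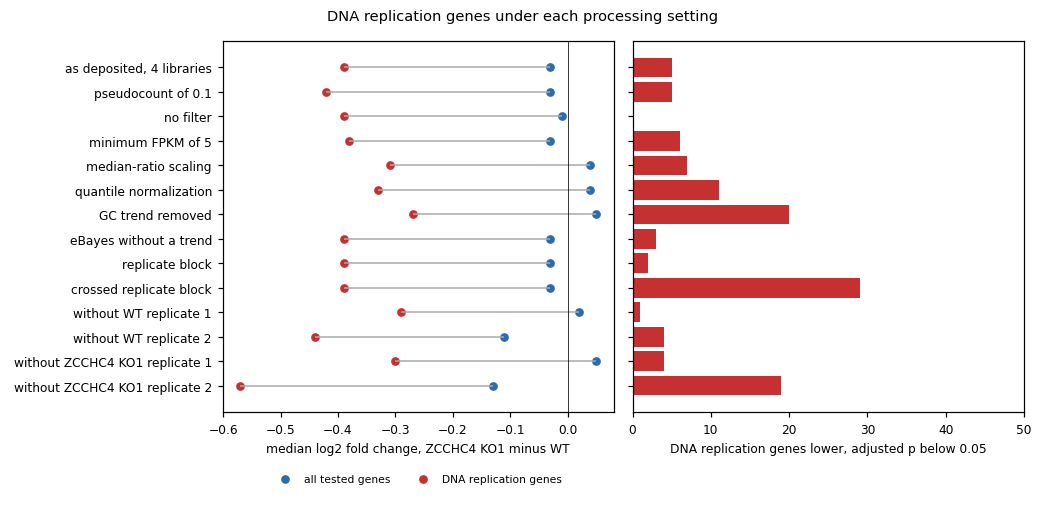
Left, the median log2 fold change (horizontal) of the 50 replication genes in red and of all tested genes in blue under each processing setting (vertical); right, the number of the 50 genes lower at an adjusted p below 0.05. The red median is below the blue one in every setting shown (differences of -0.43 to -0.31), while the number called runs from 0 with no filter to 29 with the crossed replicate block, where 1.57 and 27.8 percent of all tested genes were called lower.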

How the data were processed

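RNA from 2 WT and 2 ZCCHC4 KO1 libraries was sequenced. The study's methods name the BGISEQ-500 platform, whereas Illumina HiSeq stands in the labels. High-quality reads were mapped by the authors onto GRCh38 (Bowtie2). Gene levels came from RSEM, and the deposited unit is FPKM. Software versions, the quality limit and the annotation are not given in the sources used here. Symbols were found in RefSeq for 16384 of 16658 genes. Genes with an FPKM of at least 1 in at least 2 libraries were tested after taking log2(FPKM + 1), using limma 3.58.1 (lmFit, eBayes with a trend) in R 4.3.3, with Benjamini-Hochberg adjustment over all 10726 tested genes. No count model was used. Sequencing depth is unknown, relative or absolute, so counting error cannot be stated. GC content came from the longest GENCODE v44 transcript, and upstream sequences from RefSeq on GRCh38.p14. The 50 genes and all lists were chosen with earlier results of these data known. Named in full are, by role, the called genes or otherwise the genes with the largest change until 2 are named, a fixed set (CDC6, CDT1, GMNN, PCNA, RRM2, E2F1, CCNE1, CCNE2), ZCCHC4, and up to 3 genes of each other list with the smallest p. A gene that this rule would name is not reported here. Other settings tried were median-ratio scaling, a filter at an FPKM of 5 or none, 0.1 as pseudocount, quantile normalization, removal of the GC trend (natural spline, 4 degrees of freedom), eBayes without a trend, straight and crossed replicate blocks, and each library left out.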

Additional observations from a re-analysis of the deposited data

How the results depend on the processing

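The precision rests on 2 libraries per group. The median log2 fold change of the 50 genes stayed below 0 under every alternative, from -0.57 without ZCCHC4 KO1 replicate 2 to -0.27 with the GC trend removed, and without single libraries from -0.57 to -0.29. Against 5 genes called lower at an adjusted p below 0.05 from limma, there were 0 with no filter (20 at an unadjusted p below 0.05), 3 with eBayes without a trend, 2 with the replicate block, 11 with quantile normalization, 20 with the GC trend removed, 29 with the crossed replicate block, and 1 to 19 without single libraries. The share of all tested genes called lower moved too, from 4.48 percent to 1.57, 4.21, 3.31, 6.71, 13 and 27.8 percent in that order, and to 2.55 to 9.67 percent without single libraries. The other alternatives gave 5 to 7, where 4.46 to 6.19 percent of all tested genes were called lower, with 47 of the 50 genes left at a minimum FPKM of 5. With median-ratio scaling, which gave 7, MCM4 lost its call (limma adjusted p = 0.0519). Genes called higher numbered 0 except for 2 (TK1 and DBF4) with the crossed block. At the thresholds of the study, 2 genes were called lower with the crossed block and 0 with the other settings on all 4 libraries. The shares of all tested genes called higher, or called at the thresholds of the study, were not computed for these alternatives. The cause was not tested. With 1 library left in a group, that library is assumed to vary like the others.

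The labels share only a replicate number, and the differences between replicates had a Pearson correlation of -0.787 across genes between the groups, so libraries with the same number moved oppositely and neither block is given as a main result. With the replicate block, MCM6 and RRM2 remained called.

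ZCCHC4 had a log2 fold change of -1.48 (adjusted p = 0.115 from limma) with no filter and of -1.92 (adjusted p = 0.0551) with a pseudocount of 0.1. Without single libraries it was from -1.81 to -1.15. RFC3, at -0.40, turned to 0.02 without ZCCHC4 KO1 replicate 1 and was lowest, at -0.82, without ZCCHC4 KO1 replicate 2. Genes without overlap numbered 26 lower (24.2 percent of all tested genes) and 0 higher with median-ratio scaling, against 29 and 1, an alternative chosen after seeing the data. The log2 ratio of summed MCM2 to MCM7 was from -0.45 to -0.32 with that scaling and without single libraries, against -0.40.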
